A study of Mus musculus with 24 samples.

Results

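The genes described here are the 5859 that were bright on the arrays of DN2 thymocytes, of 18193 mouse genes measured in all. A gene was represented by the 1 probe set with the highest mean signal over all 24 arrays of the series, and it was bright when its mean signal over the 8 DN2 arrays was 200 or more, in units where the trimmed mean of each array is 150. The rule used the mean level over both groups. For 139 of the 5859 genes the mean of 1 group was under 200, so that they were bright only through the other group, and a difference helped to bring them in. The dimmest genes inside the limit were Wdfy1, at a mean signal of 200.02, and Dnajc1, at 200.13. Just outside it were Lrif1, at 199.88, and Rhebl1, at 199.84.

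Mice of the genotype IgHμ-TLX1 Tg Prkdc Scid/Scid (called TLX1) were set against Prkdc Scid/Scid mice (control), so both groups lacked functional DNA-PK and differed in the transgene. Per the labels, every pool was outbred ICR, at an age of 6 to 8 weeks. The study's methods give a lower limit of age that is younger, and state that the transgenic parents were bred onto CD1 and the Prkdc parents onto ICR. The mice were premalignant. Double-negative thymocytes were sorted as CD44+ CD25+ (DN2) cells, alongside DN1 and DN3, from pools of 2 to 5 mice, and each pool gave 1 array per stage. There were 4 TLX1 and 4 control pools, with 2 female and 2 male pools in each group. The transgene uses the IgHμ promoter, which is normally active in B cells and is leaky in thymocytes, so the share of DN2 cells that expressed it is not known from the arrays. By qRT-PCR, the study detected the transgene in sorted DN1, DN2 and DN3 thymocytes of TLX1 mice. The mouse Tlx1 probe set, which need not read the human transgene, gave 6.18 to 10.9 in the TLX1 pools and 2.75 to 15.3 in the control pools.

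DN2 thymocytes are the progenitors in which T lineage commitment takes place. They divide rapidly, under Kit and interleukin 7 receptor signalling, before the pre-TCR checkpoint, which DNA-PK-deficient cells rarely pass because they cannot complete V(D)J joining. TLX1 is a homeobox transcription factor that is ectopically expressed in T cell leukemia. In a dividing cell, the anaphase promoting complex and separase release the cohesin that holds sister chromatids together, and the spindle checkpoint delays that step until every kinetochore is attached.

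Some arrays stood apart. Over the bright genes, the arrays of TLX1 pool 4 and control pool 4 correlated with each other at 0.979 and with the other 6 at 0.909 to 0.937. Control pool 3 correlated with the remaining 5 at 0.942 to 0.962, and these 5 with each other at 0.962 to 0.989. The 3'/5' index, a log2 measure of how far the 3' end outshines the 5' end of Actb and Gapdh on the array's controls (a sign of RNA quality), was 0.125, 0.186, 0.183 and 0.371 in TLX1 pools 1 to 4 and 0.236, 0.403, 0.990 and 0.441 in the control pools (0.22 ± 0.11 against 0.52 ± 0.33, mean ± SD, n = 4, two-sided exact permutation p = 0.0571, where the smallest possible p is 0.0286). Without control pool 3, which had the highest index, the control mean was 0.36 ± 0.11. The study's sorting data also placed more cells outside the gates for control pool 3 and TLX1 pool 2 than for other pools. Of the 10 genes listed as markers of the DN2 gate and early T cells, 9 were bright, and the exception was Cd44, at 85.3 to 119 in the TLX1 pools and 80.3 to 153 in the control pools. The summed signals of the 10 lists of other cell types overlapped between groups in every list, but single markers moved. Cd8a and Cd8b1, which DN cells lack, were at 199 and 173 in control pool 3 and at 73.8 and 82.1 in TLX1 pool 2, and at 0.385 to 13.6 elsewhere, while Cd4 was at 3.12 or less on every array. Among dim markers, the dendritic gene Siglech (log2 fold change -1.85 ± 0.49 SE, signals of 2.12 to 21.7) and the NK gene Tbx21 (-1.32 ± 0.42, signals of 1.11 to 8.23) were lower at limma p under 0.05. Other members of these lists went the other way, such as H2-Aa (0.41), Cd74 (0.35) and Prf1 (0.52). The median was 0.21 for the dendritic list and -0.003 for the NK list. The myeloid gene S100a8 was at 412 and 470 in TLX1 pools 2 and 4, and at 2.90 to 100 elsewhere. The part of such cells in the results was not tested. The B cell list, for instance, summed to 671 to 937 in TLX1 and 872 to 1002 in control pools. Over both groups, Vpreb1 was at 199 to 342, Cd79b at 235 to 321, Blk at 137 to 214 and Igll1 at 64.6 to 118. Cd79a, Pax5 and Ms4a1 of the same list were under 15 on every array. The dendritic cell list summed to 595 to 1034 against 488 to 782. None of the genes named in the next paragraphs at p at most 0.05 and a fold of 1.4 is on a marker list.

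Bright genes differed little between TLX1 and control DN2 thymocytes. At the thresholds of the study's methods, given in the next paragraph, 7 genes were higher in TLX1, 4 of them genes of mitosis (Espl1, Kif20a, Knstrn and Rangap1) and 1 the interferon-stimulated gene Usp18, and 1 gene of NF-kappaB signalling was lower (Nfkbiz). As groups, the spindle checkpoint genes lay above control and the ribosomal protein and immediate early genes below it. The ribosomal direction was lost after quantile normalization, and the immediate early median moved from -0.34 to -0.10 without control pool 2. No bright gene passed an adjusted p of 0.05.

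By limma with Benjamini-Hochberg adjustment over all 27022 probe sets kept, 0 bright genes were called higher and 0 lower, against 0.0037% and 0% of all probe sets tested, and every adjusted p of a bright gene was 1.0 when rounded. The methods' t-test with the same adjustment also called 0. Unadjusted, 49 bright genes were higher and 18 lower at limma p under 0.05 (0.836% and 0.307%), where 1.45% and 2.07% of all probe sets tested were (3.53% in either direction). At the thresholds of the study's methods, an unadjusted p of at most 0.05 with a fold change of at least 1.4, 7 bright genes were higher and 1 was lower (0.119% and 0.0171%), against 0.925% and 1.58% of all probe sets tested. These counts turned on the scaling, with 44 higher and 1 lower after median centring of the arrays, which moved the median of all probe sets from -0.02 to 0.08, and 4 and 3 after quantile normalization. With a mean of 200 or more asked of each group, a limit chosen after seeing the data, 5720 genes were left and the counts were 6 higher and 0 lower, without Kif20a and Nfkbiz. In 113 genes every TLX1 pool was above every control pool, and in 60 every TLX1 pool was below (1.93% and 1.02%), where all probe sets gave 1.39% and 1.35%. The shares past a p were thus below the background in both directions, and the share with no overlap was above it for higher genes and below it for lower genes. The moderated test draws each gene's variance toward a value set by all probe sets kept, dim ones included. Of 27 bright spindle genes, 5 were higher at limma p under 0.05, and 2 when no filter was used. There were 7 with the top 40% of probe sets and 10 with log2(signal + 32). In each of these 9 had no overlap, which neither a filter nor an offset can change, as the order of the pools stays. Scaling can change it, and 6 had no overlap after quantile normalization, 5 after median centring and 6 after centring on bright genes. The shares past a p describe this fit as well as the genes.

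The precision behind those counts was high for these arrays. The standard error of the log2 fold change had a median of 0.157 in bright genes and 0.231 over all probe sets tested, and the median 95% confidence interval (CI, from limma) extended 0.36 to each side, a factor of 1.28. Log2 fold changes from the 5th to the 95th percentile ran from -0.25 to 0.26 in bright genes and from -0.58 to 0.48 over all. Within a factor of 1.4 of no change lay 99.2% of bright genes and 88.1% of all probe sets. For 5598 bright genes, 95.5%, the whole confidence interval lay within a factor of 2, against 70.6% of all probe sets. With no p, 20 bright genes were higher and 27 lower by 1.4-fold or more, against 4.93% and 6.96% of all probe sets. The share of genes at the methods' thresholds fell with signal from 7.01% of the tested genes under 20, through 3.91% (20 to 50), 1.13% (50 to 100) and 0.868% (100 to 200), to 0.223% (200 to 500), 0.123% (500 to 1000) and 0% from 1000 upward.

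**Figure D1:**
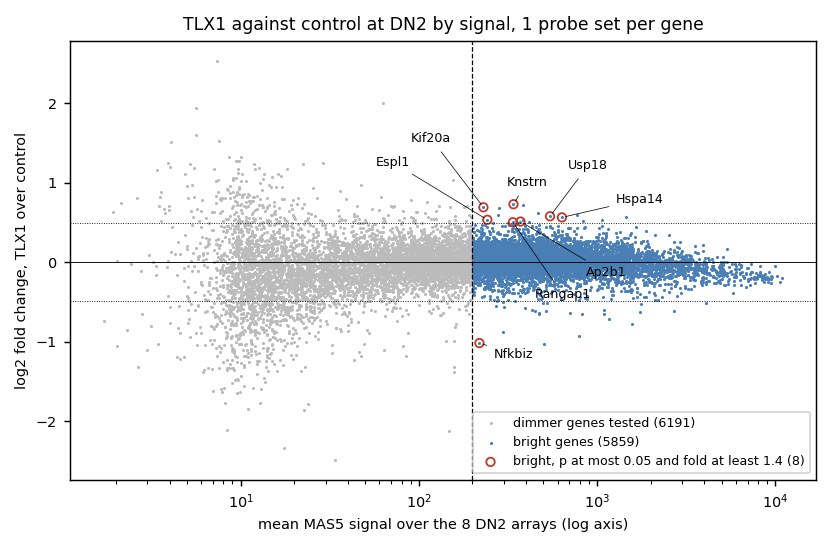
Log2 fold change of TLX1 over control at DN2 (vertical axis) against the mean MAS5 signal over the 8 DN2 arrays (horizontal log axis), 1 point per gene tested. The dashed line is the limit of 200 for bright genes and the dotted lines are folds of 1.4. The spread narrows to the right, 8 bright genes (red circles) meet the methods' thresholds, and the genes of the highest signal lie mostly just below 0.

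Espl1 encodes separase, the protease that cleaves cohesin at anaphase. Its signal was 269, 312, 284 and 271 in TLX1 pools 1 to 4 and 206, 267, 159 and 169 in control pools 1 to 4. Every TLX1 pool was above every control pool, though TLX1 pool 1 exceeded control pool 2 only slightly. The log2 fold change was 0.53 ± 0.18 (SE, n = 4, 95% CI 0.11 to 0.95). Kif20a encodes a mitotic kinesin of the central spindle. It gave 274, 259, 236 and 360 in the TLX1 pools and 182, 196, 112 and 224 in the control pools, again with no overlap. The control mean was 178 and the TLX1 mean 282, so Kif20a was bright only through the group where it was high. Kif20a was higher by a log2 fold change of 0.69 ± 0.24 (SE, 95% CI 0.13 to 1.25). Knstrn encodes a kinetochore protein that helps chromosomes separate. It gave 440, 386, 368 and 466 in the TLX1 pools and 217, 318, 152 and 370 in the control pools. Control pool 4 lay within the TLX1 range, and the other control pools below it. The log2 fold change was 0.73 ± 0.28 (SE, 95% CI 0.09 to 1.36), and the 4 other probe sets of Knstrn that were tested gave 0.80, 0.54, 0.65 and 0.22. Rangap1, which activates the Ran GTPase that guides nuclear transport and spindle assembly, gave 429, 420, 447 and 287 against 344, 290, 230 and 252. TLX1 pool 4 fell among the control pools, and the other TLX1 pools were above all of them. The log2 fold change was 0.50 ± 0.20 (SE, 95% CI 0.05 to 0.95), and the 2 other probe sets gave 0.23 and -0.46.

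Aurka, the kinase that builds spindle poles, missed the fold of 1.4 with a log2 fold change of 0.41 ± 0.14 (SE, fold 1.33, 95% CI 0.10 to 0.73). It gave 439, 505, 438 and 468 in the TLX1 pools and 409, 305, 336 and 344 in the control pools, with no overlap. Cenpf, a kinetochore protein of late cell cycle, gave 774, 657, 629 and 698 against 541, 583, 599 and 459, with no overlap and a log2 fold change of 0.34 ± 0.14 (SE, 95% CI 0.02 to 0.66). Spc24, a subunit of the NDC80 complex that binds microtubules, gave 495, 524, 475 and 577 against 457, 441, 279 and 374, with no overlap and a log2 fold change of 0.44 ± 0.18 (SE, 95% CI 0.02 to 0.86). All 3 genes thus separated the pools, by less than the fold of 1.4.

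The promoters of Aurka, Cenpf and Espl1 are shown because these genes of 1 process were higher together and because promoters of mitotic genes are known for CCAAT boxes and for TTTGAA, the core of the cell cycle homology element. Each line gives the 120 bases before the RefSeq start in GRCm38.p6, 5′ to 3′ on the strand of the gene, with motif matches in capitals. Aurka lies at chr2:172370571-172370690 (minus strand), Cenpf at chr1:189688087-189688206 (minus strand) and Espl1 at chr15:102296173-102296292 (plus strand).
Aurka: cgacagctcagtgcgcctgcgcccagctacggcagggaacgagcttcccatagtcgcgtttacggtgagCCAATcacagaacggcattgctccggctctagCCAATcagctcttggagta
Cenpf: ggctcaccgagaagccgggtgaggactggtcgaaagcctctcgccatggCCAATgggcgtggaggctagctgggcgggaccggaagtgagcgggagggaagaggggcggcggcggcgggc
Espl1: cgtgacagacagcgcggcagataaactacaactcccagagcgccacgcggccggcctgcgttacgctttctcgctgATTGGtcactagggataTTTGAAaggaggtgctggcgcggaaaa
Aurka holds CCAAT 51 and 19 bases before the start, Cenpf 71 bases before it, and Espl1 on the opposite strand (printed as ATTGG) 44 bases before it, with TTTGAA 27 bases before it. In the window from 250 bases before to 50 after the start, read on both strands, CCAAT occurred in 17 of the 21 bright spindle genes with a window (81.0%), in 42.9% of bright genes and in 41.1% of all 27025 genes with a window. TTTGAA occurred in 14 of the 21 (66.7%), in 14.6% of bright genes and in 20.2% of all. Matches of each motif were counted separately, and a match is a description of these letters.

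As a group, spindle checkpoint and kinetochore genes were shifted toward TLX1. Of 27 bright members, 23 had a log2 fold change above 0 and 4 below, with a median of 0.23, beside 52.9% above 0 and a median of 0.01 for all bright genes and 47% and -0.02 for all probe sets tested. In 9 members every TLX1 pool was above every control pool, and in 0 below, where 1.39% and 1.35% of all probe sets did so. At limma p under 0.05, 5 were higher and 0 lower (1.45% and 2.07% of all probe sets), namely Aurka, Kif20a, Cenpf, Spc24 and Bub1b, the last of which was chosen after its values were seen (log2 fold change 0.35). Averaged over the members and centred on the mean of the 4 control arrays, the log2 signal was 0.22, 0.16, 0.08 and 0.38 in TLX1 pools 1 to 4 and 0.00, 0.05, 0.03 and -0.08 in the control pools. TLX1 pool 4 was the highest and control pool 4 the lowest. Without both pool 4 arrays the median was 0.18 with 18 above 0 and 9 below, and once the index was added as a covariate it was 0.25. Of the 27, 2 (Kif20a among them) were bright only through 1 group. The list holds genes that the study chose on these samples, so its direction is not independent evidence.

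Outside mitosis, Hspa14, Ap2b1 and Usp18 met the methods' thresholds. Hspa14, a ribosome-associated chaperone, gave 753, 716, 725 and 787 in the TLX1 pools and 572, 531, 312 and 683 in the control pools, with no overlap, and the log2 fold change was 0.56 ± 0.24 (SE, 95% CI 0.02 to 1.10). Its other 2 probe sets gave -0.88 and 0.16, so the probe sets of Hspa14 differ in sign. Ap2b1, a subunit of the clathrin adaptor at the plasma membrane, gave 447, 451, 393 and 442 against 317, 231, 289 and 404, where control pool 4 lay within the TLX1 range. The log2 fold change was 0.51 ± 0.18 (SE, 95% CI 0.09 to 0.93), and the other probe sets gave 0.19 and -0.46. Usp18, which removes ISG15 from proteins and restrains interferon signalling, gave 617, 612, 861 and 505 against 604, 343, 341 and 471. Control pool 1 lay within the TLX1 range, and the log2 fold change was 0.58 ± 0.24 (SE, 95% CI 0.02 to 1.13).

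Nfkbiz, an inducible regulator of NF-kappaB target genes, was the 1 bright gene lower at the methods' thresholds. It gave 143, 111, 145 and 150 in the TLX1 pools and 163, 505, 254 and 278 in the control pools. All 4 TLX1 pools were below all control pools, and control pool 2 stood well above the rest. The TLX1 mean was 137 and the control mean 300.1, so Nfkbiz was bright only through the group where it was high. The log2 fold change was -1.02 ± 0.32 (SE, 95% CI -1.75 to -0.29), and the 2 other probe sets gave -0.45 and -0.76.

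**Figure D2:**
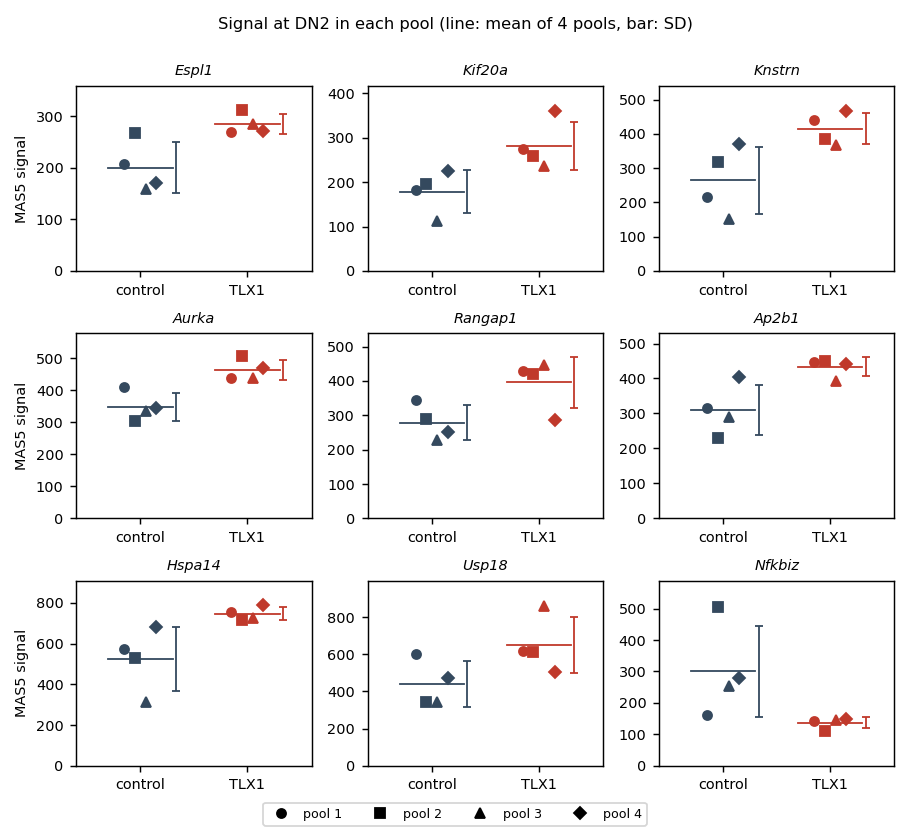
MAS5 signal (vertical axes, linear and starting at 0) of the 8 bright genes at the methods' thresholds and of Aurka in the 4 control and 4 TLX1 pools, with the mean of the pools as a line and the SD as a bar. Control pool 3 (dark triangle) is the lowest control in 6 of the 7 genes that were higher at those thresholds, and control pool 2 (dark square) is the highest in Nfkbiz.

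Whether the 8 genes met the thresholds turned on single libraries, most of all on control pool 3, without which 1 of the 8 stayed. It was the lowest control pool in 6 of the 7 higher genes, and in 61 of the 113 higher genes with no overlap (54%), where it was the lowest control in 21.5% of all bright genes. Among the 60 lower genes with no overlap it was the highest control pool in 36 (60%), against 33.6% of all bright genes. Without control pool 3, the methods' thresholds were met by 0 higher and 3 lower genes, and of the 8 genes only Nfkbiz stayed, at -1.06. Without TLX1 pool 4 the counts moved further, to 28 higher and 75 lower genes with 447 and 374 not overlapping, and 5 of the 8 stayed. In that setting 1.86% and 3.73% of all probe sets tested met the thresholds, and 5.58% and 5.62% did not overlap. Groups of fewer pools separate more easily. Without control pool 3, Espl1 was at 0.43, Kif20a at 0.48, Knstrn at 0.49, Rangap1 at 0.41, Ap2b1 at 0.48, Hspa14 at 0.33 and Usp18 at 0.47, all still above 0. When the index was a covariate, 0 of the 8 met the thresholds, at 0.36 for Espl1, 0.44 for Kif20a, 0.44 for Knstrn, 0.24 for Rangap1, 0.48 for Ap2b1, 0.22 for Hspa14, 0.30 for Usp18 and -0.95 for Nfkbiz. Aurka was at 0.40 without control pool 3 and 0.36 with the index.

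**Figure D3:**
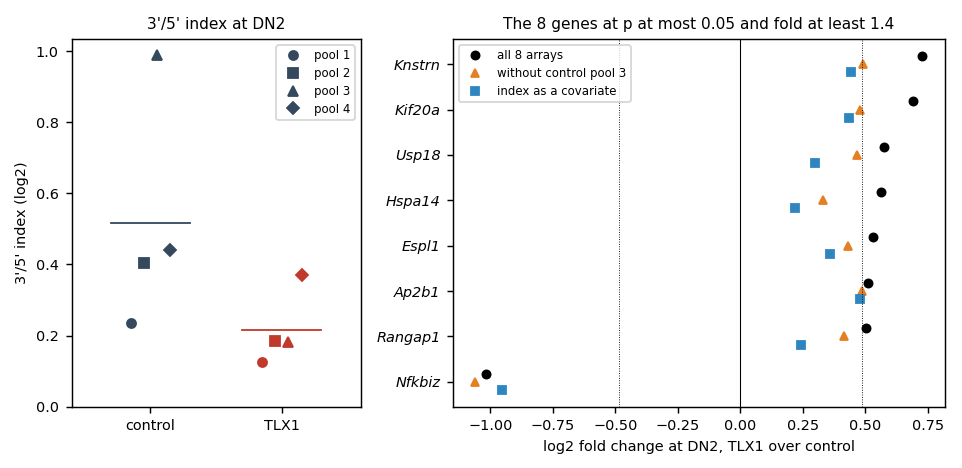
Left, the 3'/5' index (log2) of each DN2 array by pool, with group means as lines. Control pool 3, at 0.990, is above all others. Right, the log2 fold change at DN2 of the 8 bright genes at the methods' thresholds with all 8 arrays (black), without control pool 3 (orange) and with the index as a covariate (blue), with folds of 1.4 dotted. The higher genes move toward 0 in both, and Nfkbiz stays near -1.

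Interferon-stimulated genes lay above control for the most part. Of 34 bright members, 28 were above 0 and 6 below, with a median of 0.17, and 1 (Usp18) was higher and 0 lower at limma p under 0.05. Of all probe sets tested, 1.45% were higher and 2.07% lower at that p, and 1.39% and 1.35% had no overlap. In 0 members was every TLX1 pool above every control pool, and in 1, B2m, the light chain of MHC class I, every TLX1 pool was below, at 6129 to 7323 against 7355 to 8787 (log2 fold change -0.29 ± 0.13 SE, 95% CI -0.59 to 0.01). Ifit1, an antiviral protein that binds foreign RNA, gave 514, 626, 802 and 333 in the TLX1 pools and 533, 242, 366 and 324 in the control pools. TLX1 pool 3 was the highest and TLX1 pool 4 fell among the controls, and the log2 fold change was 0.62 ± 0.32 (SE, 95% CI -0.12 to 1.36). Ifih1, a sensor of viral RNA, was at 0.31 ± 0.17 (SE, 95% CI -0.09 to 0.71). On the same measure, centred on the controls, the list was at 0.12, 0.18, 0.36 and -0.05 in TLX1 pools 1 to 4 and 0.26, -0.11, -0.19 and 0.04 in the control pools, so the groups overlapped. When the index was a covariate, 17 members were above 0 and 17 below, with a median of -0.01.

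The promoter of Ifit1 is shown for the interferon-stimulated response element, searched as GAAA, any 2 bases and GAAA again, which occurred in 10 of 26 bright members with a window (38.5%), in 3.83% of bright genes and in 3.99% of all genes. The 120 bases before its start lie at chr19:34640769-34640888 (plus strand, GRCm38.p6, RefSeq), and the matches are on the opposite strand, 104 and 85 bases before the start, in capitals.
Ifit1: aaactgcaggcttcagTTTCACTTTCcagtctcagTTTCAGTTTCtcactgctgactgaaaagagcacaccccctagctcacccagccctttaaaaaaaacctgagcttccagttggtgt

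The other lists of growth and division lay closer to 0. Among cyclins, kinases and growth regulators, 17 of 25 bright members were above 0, with a median of 0.05. Ccnb2, a mitotic cyclin, was higher by 0.27 ± 0.11 (log2, SE, 95% CI 0.01 to 0.52), with 1337 to 1491 in TLX1 and 1119 to 1249 in control pools and no overlap. Cdk1, the kinase that drives entry into mitosis, was higher by 0.34 ± 0.14 (95% CI 0.01 to 0.67), at 1149 to 1295 against 864 to 1162. Max, the partner of Myc, gave 0.49 ± 0.23 (95% CI -0.04 to 1.02). Of 38 replication genes, 25 were above 0, with a median of 0.06, and none passed p under 0.05. Lig1, the ligase of Okazaki fragments, gave 0.31 (95% CI -0.09 to 0.70), and Rfc5, a subunit of the clamp loader, 0.16 with no overlap. Of 17 genes of double-strand break repair, 12 were above 0, with a median of 0.11, and Parp1, a sensor of DNA breaks, gave 0.46 ± 0.20 (95% CI -0.01 to 0.92), at 1057 to 1297 against 621 to 1136. The other probe sets of Parp1 gave 0.25, -0.03 and -0.38. Of 26 genes of the anaphase promoting complex and cohesin, 18 were above 0, with a median of 0.09, and Espl1 was the 1 past p 0.05. Anapc16, a small subunit of that complex, gave 0.31 ± 0.15 (95% CI -0.03 to 0.66).

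Protein folding and disposal, and lipid synthesis, varied little. Of 48 genes of the endoplasmic reticulum, 32 were above 0, with a median of 0.07. P4hb, protein disulfide isomerase, was higher by 0.38 ± 0.15 (log2, SE, 95% CI 0.04 to 0.73), at 1993 to 2301 against 1273 to 1814, with no overlap. Of 35 proteasome genes 19 were above 0 (median 0.02). Psmd11, a lid subunit, was higher by 0.36 ± 0.15 (95% CI 0.02 to 0.70), at 1621 to 1827 against 1066 to 1519, with no overlap. Its 4 other probe sets gave 0.07, 0.11, -0.09 and 0.12, and with the median of all its probe sets taken on each array the value was -0.07. Of 20 genes of cholesterol and fatty acid synthesis 15 were above 0 (median 0.09). Fdps, farnesyl diphosphate synthase, gave 0.59 ± 0.37 (95% CI -0.27 to 1.45), with control pool 3 at 261 and the other pools at 671 to 1061. Of 24 heat shock proteins and chaperonins the median was -0.01, and Dnajb1, a co-chaperone of Hsp70, gave 0.27 with no overlap (95% CI -0.03 to 0.56). The median was -0.001 for 33 genes of chromatin, where Top2a, the mitotic topoisomerase, gave 0.25 with no overlap (2825 to 3636 against 2634 to 2728, 95% CI -0.04 to 0.54). It was -0.02 for 14 genes of glycolysis, -0.05 for 24 genes of survival and apoptosis and -0.05 for 30 genes of the cytoskeleton, where Actb gave -0.31 ± 0.14 (95% CI -0.63 to 0.01).

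Medians this close to 0 turned with the scaling. After median centring those of oxidative phosphorylation (0.02), translation factors (0.03), cytoskeleton (0.05), survival and apoptosis (0.06), glycolysis (0.08), heat shock proteins (0.10), chromatin (0.10), T lineage regulators (0.06) and CD3 and pre-TCR genes (0.07) were above 0, whereas those of the immediate early (-0.23), ribosomal (-0.08) and splicing (-0.02) lists stayed below. The spindle median was 0.19 after quantile normalization and 0.33 after median centring, and the interferon median 0.18 and 0.28.

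**Figure D4:**
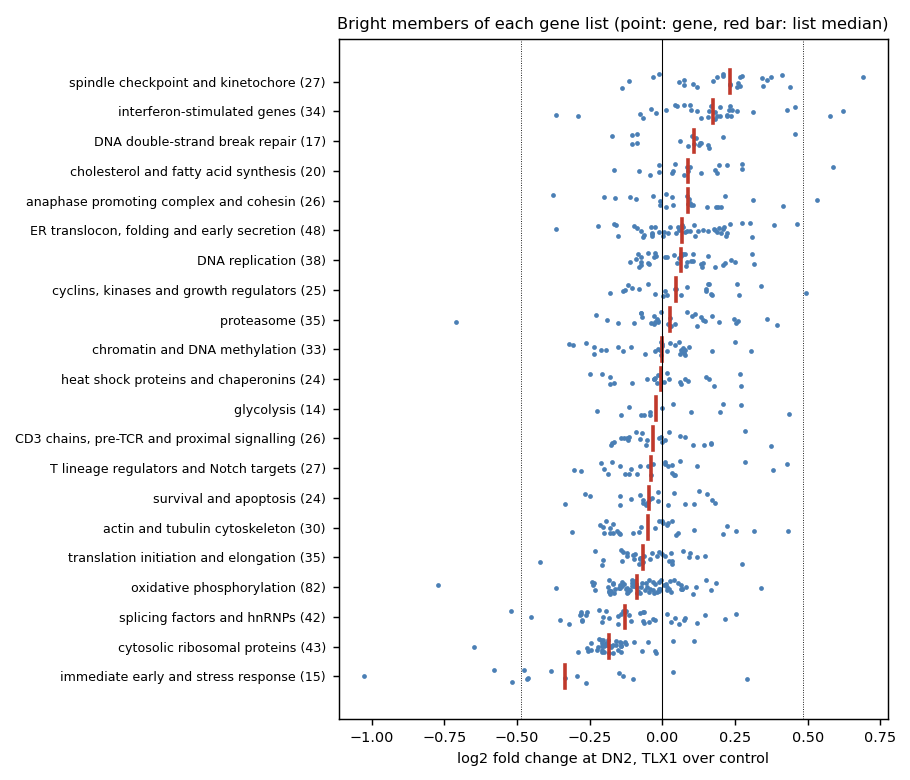
Log2 fold change of TLX1 over control at DN2 (horizontal axis) for the bright members of 21 gene lists, 1 point per gene, with the number of members in brackets, the list median as a red bar and folds of 1.4 dotted. The spindle and interferon lists sit to the right of 0, and the ribosomal and immediate early lists to the left.

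Immediate early and stress response genes, which cells induce within minutes of stimulation, lay below control. Of 15 bright members, 2 were above 0 and 13 below, with a median of -0.34. At limma p under 0.05, 0 were higher and 2 lower (1.45% and 2.07% of all probe sets). Tsc22d3, a glucocorticoid-induced leucine zipper, was at -0.47 ± 0.18 (SE, 95% CI -0.90 to -0.05), and the groups overlapped. Zfp36l1, which destabilises mRNA, was at -0.34 ± 0.13 (SE, 95% CI -0.64 to -0.03), at 384 to 461 against 450 to 587. Ier5, a stress-induced nuclear protein, was at -0.46 ± 0.20 (95% CI -0.93 to 0.01) with no overlap. On the measure centred on the controls, the list was at 0.06, -0.53, -0.05 and -0.77 in TLX1 pools 1 to 4 and 0.15, 0.68, 0.03 and -0.86 in the control pools. Pool 4 was low in both groups and control pool 2 was the highest, and without control pool 2 the median was -0.10. Without TLX1 pool 4 it was -0.17.

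Cytosolic ribosomal protein genes lay below control almost without exception, by a small amount. Of 43 bright members, 2 were above 0 and 41 below, with a median of -0.18, 0 passed limma p under 0.05, and in 7 every TLX1 pool was below every control pool, where 1.35% of all probe sets did so. After quantile normalization 0 of the 43 had no overlap. Rpl37a, a protein of the large subunit, gave 7847 to 8906 against 9393 to 10877 (log2 fold change -0.25 ± 0.12 SE, 95% CI -0.52 to 0.03), with no overlap. Rps29 gave -0.24 and Rps10 -0.26, both with overlap. Control pool 3 was the highest control in 20 of the 43 (46.5%). Splicing factors and hnRNPs were of the same kind, with 10 of 42 above 0 and 32 below (median -0.13). Srsf5 was at -0.32 ± 0.14 (95% CI -0.64 to -0.00) and Hnrnph1 at -0.28 ± 0.12 (95% CI -0.56 to -0.00), both with no overlap. Of 82 genes of oxidative phosphorylation 20 were above 0 and 62 below (median -0.09), with Atp5md, of ATP synthase, at -0.77 ± 0.44 (95% CI -1.78 to 0.23). Of 35 translation factors 11 were above 0 and 24 below (median -0.07). Among them Eif4a2, a helicase of initiation, was lower at -0.42 ± 0.17 (95% CI -0.82 to -0.02) and Eif4e, the cap-binding factor, was higher at 0.28 ± 0.12 (95% CI 0.01 to 0.55).

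The shift of the ribosomal genes was shared by other genes of like signal. The median log2 fold change was 0.04 for genes of a mean signal of 200 to 500, 0.03 from 500 to 1000, -0.01 from 1000 to 2000, -0.07 from 2000 to 5000 and -0.17 from 5000 upward. Of the 108 genes at 5000 or more, 3 were above 0 and 105 below, and of the 72 of them that are not ribosomal, 3 were above 0 and 69 below (median -0.15). The mean log2 signal of the 108 was 12.56, 12.69, 12.56 and 12.77 in TLX1 pools 1 to 4 and 12.76, 12.75, 12.89 and 12.80 in the control pools. TLX1 pool 4 lay with the controls. After quantile normalization, which gives every array the same distribution, 54 of the 108 were above 0 and 54 below (median -0.001), and 20 of the 43 ribosomal genes were above 0 and 23 below (median -0.01), so that direction was lost. With the index as a covariate the ribosomal median was -0.10. The part of the index in this shift was not tested.

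Of the genes that the study named for cell cycle, spindle and apoptosis, 15 were bright, and by the brightest probe set of each gene Aurka was the only one with limma p under 0.05 or with no overlap between groups. By qRT-PCR, another measure, the study reported higher Aurka, Bub1 and Anapc5 in TLX1 thymocytes, and higher Brca1 and Birc5 at DN2. It reported lower Chek1 at DN1, and enrichment of spindle genes at DN2 in its gene set analysis of the arrays. The values here are array signals at DN2. Among genes of chromosome segregation, the log2 fold change was 0.20 ± 0.15 (SE) for Anapc1, -0.09 for Anapc5 and 0.10 for Cdc23 of the anaphase promoting complex, 0.19 for Stag1, 0.09 for Smc1a and -0.37 ± 0.49 for Rad21 of cohesin, and 0.11 for the checkpoint kinase Bub1. Among the others it was 0.17 for Birc5 (survivin), 0.17 for Ccna2 (cyclin A2), 0.16 ± 0.24 for Brca1, -0.08 for the DNA damage kinase Chek1, 0.04 for the apoptosis kinase Stk17b, 0.06 for Myc and -0.13 for Myb. The study assessed Ccna2 (as cyclin A), Myc and Myb by qRT-PCR as genes already linked to human T-ALL, and reported all of them higher in TLX1 thymocytes. It drew the others from its results on the same samples. The 95% interval of each of the 14 genes besides Aurka spanned 0, and the groups overlapped in each. Other, mostly dimmer, probe sets of 4 of these genes passed limma p under 0.05. For Brca1 they gave 0.74 ± 0.16 and 1.01 ± 0.41 (SE), at mean signals of 79.3 and 54.0, both with no overlap, and a further one gave -0.40. For Stag1 they gave 0.75 ± 0.26, with no overlap, and 0.79 ± 0.31, at mean signals of 92.0 and 50.6. For Stk17b 1 gave -0.61 ± 0.21 at a mean signal of 85.8, and for Ccna2 1 gave 0.51 ± 0.22 at 934. The probe sets of Brca1 and of Stk17b thus differed in sign. So did those of Rad21 (others at 0.74 and -0.62), Bub1 (-0.47) and Chek1 (0.30, 0.11 and -0.17). The other probe sets of Anapc5 gave 1.31, 0.04, -0.05, -0.12 and -0.14.

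Genes of the T cell program at DN2 differed less. The log2 fold change was -0.19 for Il7r, -0.12 for Kit and -0.04 for Notch1, the receptors of early thymocytes, and -0.09 for Il2ra, which encodes the CD25 used in the sort. It was -0.17 for Thy1, -0.14 for Cd24a, -0.09 for the commitment factor Bcl11b and 0.02 for Ptcra, the pre-TCR alpha chain. The 95% interval of each of the 9 bright gate and early T genes spanned 0. Cd3e, a CD3 chain, was at -0.11 ± 0.41 (SE) and was 1215 and 1267 in the pool 4 arrays of both groups and 2774 to 3812 in the rest. Of 27 T lineage regulators and Notch targets 12 were above 0 and 15 below (median -0.04), with Runx3 at 0.38 ± 0.17 (95% CI -0.01 to 0.77), and of 26 genes of the CD3 chains and pre-TCR signalling 10 were above 0 and 16 below (median -0.03), with Cd3g at -0.18. In sorted bulk samples, fewer cells of a type and less RNA per cell cannot be told apart.

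The same pools were arrayed at DN1 and DN3, so the values there share animals with DN2 and stand beside them only as values. Espl1 was 0.33 at DN1 and 0.07 at DN3, Kif20a 0.58 and 0.66, Knstrn 0.51 and 0.71, Rangap1 0.30 and 0.33, Hspa14 0.18 and 0.50, and Usp18 0.42 and 0.54. Ap2b1 was 0.04 and 0.75, and Nfkbiz 0.01 and -0.73. Ap2b1 and Nfkbiz thus lay near 0 at DN1 and away from it at DN2 and DN3. The difference of the TLX1 effect between DN2 and DN1, fitted with the pool as a fixed block, was 0.47 ± 0.19 (log2, SE) for Ap2b1 and -1.03 ± 0.39 for Nfkbiz, both under 0.05 in limma before adjustment and not after. Both genes were picked by their DN2 values on these same arrays, and Nfkbiz was bright only through the control pools. A low unadjusted p is therefore no independent evidence of a stage difference for these genes. After adjustment 0 bright genes passed in either stage contrast. Unadjusted, 45 bright genes were higher and 38 lower at p under 0.05 between DN2 and DN1 (1.42%, against 3.6% of all probe sets tested) and 19 and 9 between DN3 and DN2 (0.478% against 2.89%). The spindle list had a median of 0.17 at DN1, 0.23 at DN2 and 0.09 at DN3. The interferon list had 0.17, 0.17 and 0.14, and the ribosomal list -0.21, -0.18 and -0.32. The immediate early list had -0.03, -0.34 and -0.20.

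**Figure D5:**
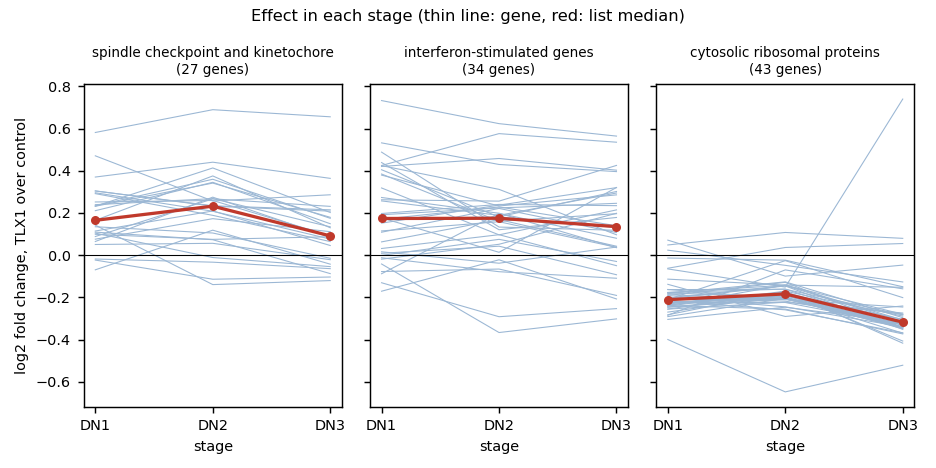
Log2 fold change of TLX1 over control (vertical axis) at DN1, DN2 and DN3 for the bright members of 3 lists, 1 thin line per gene, with the list median in red. The stages come from the same pools. The spindle and interferon medians are above 0 and the ribosomal median below 0 at every stage.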

How the data were processed

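RNA of sorted DN1, DN2 and DN3 thymocytes of 8 pools was hybridised to 24 Affymetrix arrays. The deposited values are linear intensity, summarised per probe set by MAS5 in Affymetrix Expression Console according to the submitters' processing notes. Detection flags are not analysed here.

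Signals under 1 were set to 1 and log2 transformed. Of 45101 probe sets, 64 are array controls, used only for the 3'/5' index. The 60% of the rest with the highest mean log2 signal over all arrays were kept (27022). Of the non-control probe sets, 34945 match 1 gene, 932 several and 9160 none, and gene names come from GEO's platform annotation. DN2 arrays of TLX1 and control were compared in R 4.3.3 by the moderated test of limma 3.58.1, with Benjamini-Hochberg adjustment over all probe sets kept. The difference between stages was an interaction over 24 arrays with the pool as a block. The script was tested on simulated data. Promoters were read in Python 3.11.15 and figures drawn with pandas 2.3.3 and matplotlib 3.10.9.

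Genes were named by a rule: the 8 bright genes at p at most 0.05 and a fold of 1.4, the bright ones among the study's cell cycle, spindle and apoptosis genes, the bright gate genes, up to 4 genes of lowest p per list, and those at the edge of 200. Members and lists were chosen with earlier results of these data known. Some genes are not reported here. The number of pools limits the precision. The labels do not say that pools of 1 number belong together, and deviations of pools of the same number correlated at 0.25, 0.20, 0.02 and 0.73, so they were not paired. Alternatives covered scaling, filters, an offset, covariates, array weights, the methods' t-test, other probe sets and leaving out pools.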

Additional observations from a re-analysis of the deposited data

Results flagged for a closer look

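In 11 of the 170 groups of 4 pools checked (6.47%; chance flags about 1 in 20), 1 pool lay far from the other 3, with a gap to its nearest neighbour, as a share of the range of log2 signals, above Dixon's 95% critical value. In TLX1 pools this share was 0.851 for Ap2b1, 0.86 for Rangap1, 0.833 for Nfkbiz, 0.989 for Brca1, 0.904 for Cd3e, 0.864 for Cdk1, 0.845 for Max, 0.882 for Parp1 and 0.978 for Rps10. In control pools it was 0.858 for Il7r and 0.871 for Ier5.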

How the results depend on the processing

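No bright gene passed an adjusted p of 0.05 under any alternative, and the 8 genes at the methods' thresholds kept their direction under all of them, except Hspa14 by the median of its probe sets (-0.87). The 7 higher and 1 lower genes became 4 and 3 when arrays were quantile normalized, while median centring gave 44 and 1. It moved the median of all probe sets from -0.02 to 0.08 and that of bright genes to 0.11, with 2 lower genes not overlapping. Centring on bright genes gave 4 and 4, with 75 higher and 98 lower not overlapping. The lower count was 3 with log2(signal + 32), 6 with all 24 arrays, 3 with an intensity trend and 8 with a term for the pool 4 arrays. With the replicate number as a block it was 6, and the higher count was 6. The index as a covariate gave 4 and 6, array weights 16 and 16, the methods' t-test 4 higher, the median of probe sets 46 and 15. Without control pool 3 and TLX1 pool 2 there were 2 higher, with 219 and 137 not overlapping, against 2.85% and 3.63% of all probe sets tested. Without both pool 4 arrays there were 35 and 36 (571 and 523 not overlapping). Of all probe sets, 2.1% and 2.7% met the thresholds there, and 8.2% and 7.67% did not overlap. Without control pool 3 too, there were 16 and 16 (879 and 659), against 1.91% and 2.16% (11.9% and 11.6%) of all probe sets. Groups of fewer pools separate more easily. A limit of 100 gave 14 and 9 of 7587 genes, a limit of 400 gave 2 and 0 of 3808 with 69 higher not overlapping, a limit of 200 over all arrays 4 lower of 6104, and a limit of 200 in each group 6 and 0 of 5720. The limit in each group, the pool 4 settings and the intensity trend were chosen after seeing the data. The cause of these changes was not tested.

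Leaving out 1 pool gave 0 to 28 higher and 1 to 75 lower genes at the methods' thresholds, 134 to 447 higher and 81 to 374 lower with no overlap, a median of -0.0111 to 0.0362 and an index difference of -0.396 (without control pool 1, exact permutation p = 0.0286) to -0.144. The counts were 28 and 75 without TLX1 pool 4, 3 and 3 without TLX1 pool 1, 3 and 1 without TLX1 pool 2, 6 and 2 without TLX1 pool 3, 22 and 11 without control pool 1, 12 and 6 without control pool 2, 0 and 3 without control pool 3, and 23 and 8 without control pool 4. Of all probe sets tested, 0.54% to 1.86% were higher and 1.3% to 3.73% lower at the thresholds in these settings. With no overlap were 1.88% to 5.58% and 2.05% to 5.62%.

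Named genes near 0 changed sign. Quantile normalization put Bcl11b at 0.0052, Il2ra at 0.030, Myb at 0.035 and Notch1 at 0.072. Median centring put Anapc5 at 0.012, Bcl11b at 0.016, Chek1 at 0.021, Il2ra at 0.013 and Notch1 at 0.062, and centring on bright genes put Ptcra at -0.0087. The index as a covariate put Cd24a at 0.090, Chek1 at 0.064, Kit at 0.084, Ptcra at -0.11, Rad21 at 0.185 and Stk17b at -0.049. Array weights put Cd3e at 0.011 and Cdc23 at -0.082. Without control pool 3 and TLX1 pool 2, Kit was 0.0115 and Ptcra -0.084. The median of probe sets put Bcl11b at 0.075, Bub1 at -0.18, Cd24a at 0.39, Chek1 at 0.14, Il2ra at 0.030, Kit at 0.066, Notch1 at 0.022, Psmd11 at -0.071 and Stk17b at -0.023. Without both pool 4 arrays, Bub1 was -0.10, Ccna2 -0.0099, Cdc23 -0.012, Kit 0.017 and Notch1 0.0035, and without control pool 3 too, Bub1 was -0.047, Cdc23 -0.11 and Kit 0.26. Leaving out 1 pool moved Brca1 from -0.057 to 0.28, Bub1 from -0.064 to 0.20, Cd3e from -0.44 to 0.19, Cdc23 from -0.084 to 0.19, Kit from -0.38 to 0.046, Myc from -0.087 to 0.20, Notch1 from -0.084 to 0.013, Ptcra from -0.13 to 0.24 and Stk17b from -0.0081 to 0.099.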
